A study of Drosophila melanogaster with 6 samples.

Results

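Odorant-binding proteins (OBPs) are small secreted proteins that bind hydrophobic ligands. In Drosophila many are released by support cells into the fluid around the dendrites of olfactory and taste neurons, where they carry odorants and pheromones or buffer their level, and several others are made by glia, fat body or reproductive tissue. The genes lie in tandem clusters and are named for their cytological position. Members were all rows of the authors' deposited table whose symbol starts with Obp and a digit, which gave 43 of 14862 genes. All 43 were matched to the Release 6 annotation by symbol, and 23 of them lie on chromosome arm 2R. Release 6 names 52 OBP genes with lush, the OBP of male pheromone detection, included. Of these, 8 had no entry under their Release 6 symbol in the authors' deposited table, and lush is described among the related genes.

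RNA came from embryos aged 16 to 20 h, in samples of 200 embryos. In 3 samples, labelled InR-DN, the mothers' oocytes had expressed a dominant-negative insulin receptor, a form that blocks signalling by the normal receptor. In the other 3 samples, labelled GFP control, the oocytes had expressed green fluorescent protein. The flies were kept on standard food with yeast paste. The sources used here do not give the promoter that drove the transgenes or the strain background. They do not say either that the samples came from separate crosses. The p-values therefore measure only a spread between libraries of the authors' fit, which may be technical. In bulk RNA of whole embryos, fewer cells of a type and less RNA per cell cannot be told apart.

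The authors' deposited table holds 1 comparison and no value per sample. The sources used here do not say which group is its numerator. Genes are therefore described by the sign of the deposited log2 fold change, as lying on its positive or its negative side, and which of InR-DN and GFP control embryos had more of a transcript cannot be told. InR itself had a log2 fold change of 0.25 in the authors' deposited table and an adjusted p of 1 by edgeR's likelihood ratio test. The table's levels for genes with a single read fall on 12 values, 1 for each library of the fit. The effective library sizes were 25.7, 37.3 and 40.5 M reads (M for 1000000) on the positive side, against 23.4, 29.6 and 31.1 M reads on the negative side. The fit also held 6 libraries outside the comparison, of 15.8 to 33.0 M reads, which enter the deposited average and not the fold change. The average therefore need not be the level in the embryos. The libraries outside the comparison may also enter the spread behind the p-values. The labelled stage was checked against markers. Of 88 genes of the late embryo cuticle, 27 had no read in the compared libraries. Their median average was 0.0992 counts per 1000000 reads (CPM) in the authors' deposited table. The 20 genes listed for eggshell and yolk, made in the ovary, had a median of 599 CPM over the same 12 libraries. Most of these cuticle genes were thus near 0, at an age when the embryo forms its cuticle. They were listed by symbol, as the Cpr, Twdl and Osi families, and not all need be markers of this stage. The eggshell and yolk genes were also listed by symbol prefix, and such prefixes may catch genes of other function.

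Most OBP transcripts were scarce. The median average over the 43 genes was 0.11 CPM in the authors' deposited table, against 5.22 CPM over all genes, and a gene with no read at all is given an average of 0.0691 CPM by the prior count, a small number added to every count before the log is taken. Of the 43, 14 had no read in any of the 6 compared libraries (32.6%), against 1782 of all 14862 genes. A count of 0 allows up to 3 reads, or 0.016 CPM over the 6 compared libraries. The members with no compared read were Obp8a, Obp46a, Obp47b, Obp56b, Obp56h, Obp57e, Obp58b, Obp58c, Obp59a, Obp73a, Obp83g, Obp85a, Obp93a and Obp99d. Among them are Obp59a, needed for humidity sensing in the antenna, Obp57e, a taste OBP, and Obp8a, a seminal fluid protein. Averages reached 1 CPM for 7 members and 16 CPM for 2. Of these 7, Obp59a, averaged 1.08 CPM in the authors' deposited table with no compared read, so that average came from the 6 libraries outside the comparison.

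Of the 29 members with a read, 12 lay on the positive side, against 17 on the negative side. At an adjusted p under 0.05 in the authors' deposited table, 0 members were called on the positive side, against 5 on the negative side, which is 11.6% of the 43. The background over all genes was 4.49% for either side, 2.3% for the positive and 2.19% for the negative side. Among genes with a read, 17.2% of members were called, against 5.1% of all such genes on either side and 2.48% on the negative side. A gene with no compared read cannot be called, and Obp57a and Obp57c had compared reads on the negative side only. This share therefore supports nothing further. An unadjusted p under 0.05 was reached by 6 members, against 1488 of all genes. Under stricter rules the members' counts were 4 at an adjusted p under 0.01 (background 3.3%), 5 with a fold of 2 or more besides (background 3.83%) and 3 after Bonferroni adjustment (background 1.98%). Calls were also dropped where the fold change and average allow at most 3 reads on the lower side. Then 1 of the 43 members stayed called, Obp56d. That share was below the background of 3.86%, which was taken over all 14862 genes. Among genes averaging 1 CPM or more, 2 members were called, Obp56d and Obp56a, at a background of 3.94%. Both reached that average through the negative side or the libraries outside the comparison, so this count supports nothing further. The called genes were Obp56a, Obp56d, Obp56e, Obp57a and Obp57c. All 5 lie in the Obp56 and Obp57 clusters of 2R, where 5 of 12 members were called. Outside these clusters 0 of 31 members were called by edgeR's likelihood ratio test, 0 had an unadjusted p under 0.05, and the smallest adjusted p was 0.563. The median log2 fold change was 0.00 over the 43 members and 0.00 over all genes, while that over members with a read was -0.26, against 0.03 over all genes with a read.

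**Figure D1:**
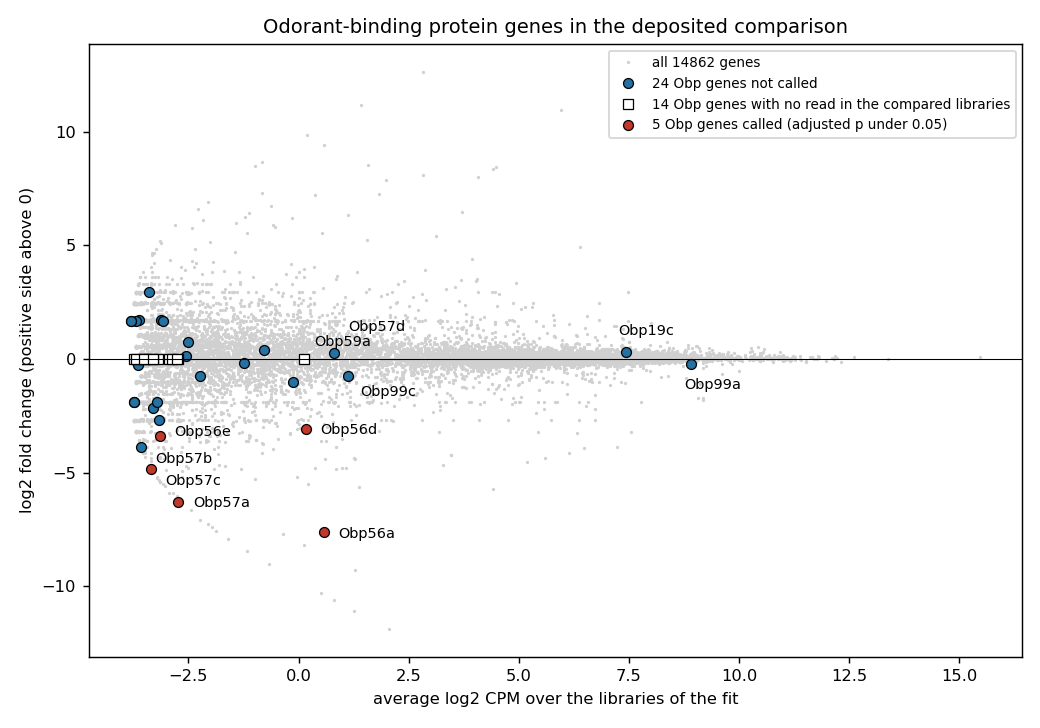
Each point is a gene of the authors' deposited table, with its average log2 CPM over the libraries of the fit on the horizontal axis and its log2 fold change on the vertical axis, positive side above 0. Blue circles are OBP genes with a read that were not called, open squares the 14 with no read in the compared libraries and red circles the 5 called genes, which all lie below 0. Obp19c and Obp99a stand far to the right of the other members and near 0.

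For the scarce members, whole reads in each compared library were solved from the deposited fold change and test statistic, up to the total that the deposited average allows. A single set of reads matched for 20 members, which held 54 reads in all on the positive side, against 91 on the negative side. Of these 20, 8 had just 1 compared read. The sums are raw reads over 103.5 M on the positive side, against 84.13 M on the negative side. A few genes carry them. Of the 91 reads, Obp57a held 28, Obp56e 12 and Obp57c 10, all called genes. Of the 54, Obp19b held 21 and Obp18a 14. The sums therefore give no direction for the members as a set. Libraries are given below in order of increasing size within a side, an order that carries no sample label. Intervals and zero limits cover counting error only.

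**Figure D2:**
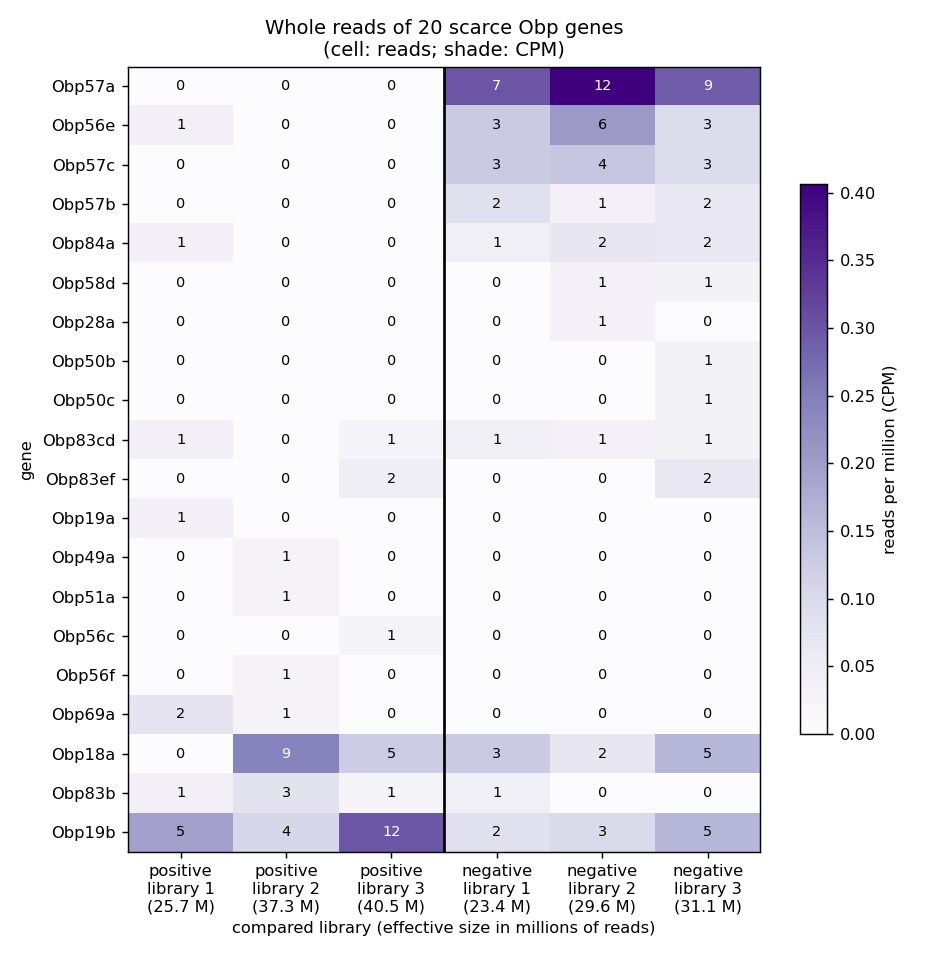
Rows are the 20 OBP genes with a single matching set of reads and columns the 6 compared libraries, positive side left of the line and negative side right of it. Numbers are reads and the shade is CPM. Obp57a, Obp57c and Obp57b have 0 reads in every positive-side library and at least 1 in every negative-side library, while Obp18a and Obp19b have reads on both sides.

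The Obp57 run lies at 1 locus in the order Obp57c, Obp57b, Obp57a. Obp57a had 0, 0 and 0 reads in the positive-side libraries, against 7, 12 and 9 reads in the negative-side libraries. These are 0 CPM on the positive side and 0.299, 0.406 and 0.289 CPM on the negative side. The sides did not overlap, and the negative side was at least 11.5-fold higher than 3 reads over the positive-side libraries would be. Its log2 fold change in the authors' deposited table was -6.29 with an adjusted p of 4.93e-09 by edgeR's likelihood ratio test. Its implied SE was 0.96, that is, the absolute log2 fold change divided by the root of the test statistic. With the positive side at 0, this fold change depends on the prior count.

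Its neighbours showed the same sides at lower levels. Obp57c had 0, 0 and 0 reads in the positive-side libraries, against 3, 4 and 3 reads in the negative-side libraries. That puts the negative side at least 4.1-fold above the 3-read limit of the positive side. The authors' deposited table gives Obp57c a log2 fold change of -4.83 and an adjusted p of 0.00242 by the likelihood ratio test. Obp57b, between them, had 0, 0 and 0 reads on the positive side, against 2, 1 and 2 on the negative side. It was not called, with an unadjusted p of 0.00468 and an adjusted p = 0.0903 in the authors' deposited table. None of the 3 genes had a read in the 6 libraries outside the comparison, so all their reads in the fit came from the negative-side libraries.

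Obp57e and Obp57d lie apart from that run, next to each other in Release 6. Both are taste OBPs that take part in the response to host-fruit acids. Obp57e had no read in the compared libraries. Obp57d shares its locus with the cuticle protein gene Cpr57A. After rounding, both genes have an average of 1.74 CPM and a log2 fold change of 0.27 in the authors' deposited table. Their unrounded values were not identical. For Obp57d the implied SE was 0.54 and the adjusted p was 1 by the likelihood ratio test. How many reads the 2 genes share cannot be told.

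**Figure D3:**
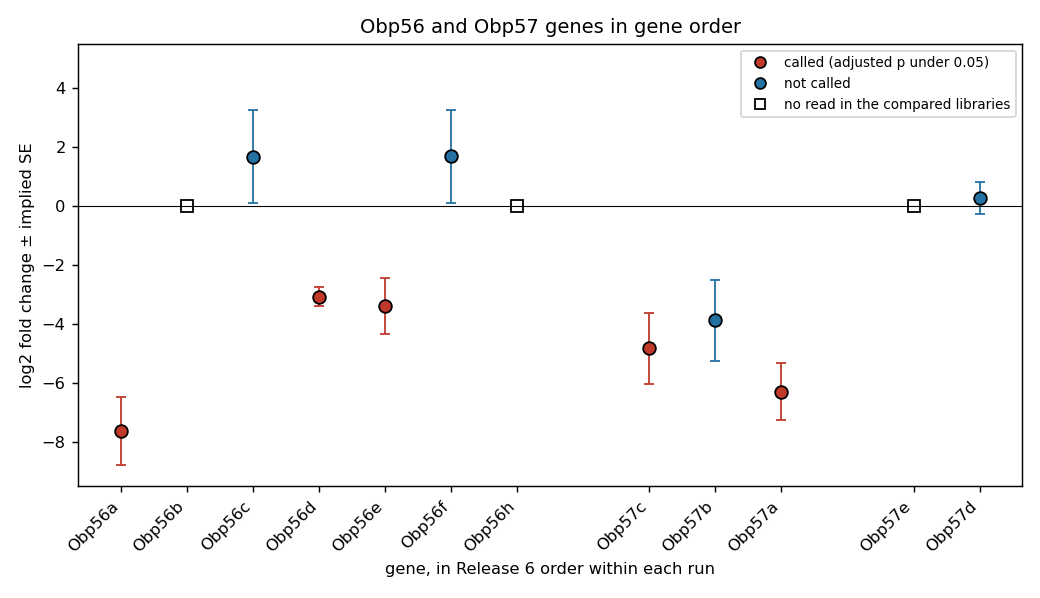
The vertical axis gives the log2 fold change in the authors' deposited table for the members of the Obp56 and Obp57 clusters, in Release 6 gene order within each run. Bars are the implied SE, red marks called genes, blue genes not called and open squares genes with no read in the compared libraries. Obp56a, Obp56d, Obp56e, Obp57c and Obp57a are called below 0, and Obp56c and Obp56f, with 1 read each, lie above 0.

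The Obp56 cluster holds 7 members here, of which 3 were called, 2 had 1 positive-side read each and 2 had no read in the compared libraries. Obp56d had the smallest adjusted p of all members, 5e-19 in the authors' deposited table by the likelihood ratio test. Its log2 fold change there was -3.08 with an implied SE of 0.32, at an average of 1.12 CPM. Its reads per library could not be solved. The deposited fold change, statistic and average put 14.5 to 47.8 reads on the positive side and 99.7 to 329 on the negative side. That is 0.14 to 0.462 CPM against 1.19 to 3.91 CPM. The lower limits assume counting noise alone and reads shared in proportion to library size. The upper limits assume that every read of the fit lay in the compared libraries. By these limits, only Obp56d among the called members held more than 3 reads on the positive side.

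Obp56a had the log2 fold change farthest from 0, -7.63 with an implied SE of 1.17 and an adjusted p = 7.08e-09 in the authors' deposited table, by the likelihood ratio test. For this gene 5 sets of reads match the deposited values. The closest holds 0, 0 and 0 reads in the positive-side libraries, against 18, 29 and 25 reads in the negative-side libraries, or 0.769, 0.98 and 0.803 CPM. Across the 5 sets the positive side held at most 3 reads and the negative side 71 to 506. The sides did not overlap in any of them, and the negative side was at least 29.1-fold higher than 3 reads over the positive-side libraries. How evenly the negative-side libraries shared these reads is not settled, since the other 4 sets include uneven ones such as 8, 351 and 69 reads.

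Obp56e, which encodes a seminal fluid protein in adult males, had 1, 0 and 0 reads in the positive-side libraries, against 3, 6 and 3 reads in the negative-side libraries. Every negative-side library lay above every positive-side one, and the negative side was 14.8-fold higher in CPM, with an exact 95% interval of 2.18 to 631. In the authors' deposited table its log2 fold change was -3.39 with an implied SE of 0.96 and an adjusted p of 0.0115 by the likelihood ratio test. An antisense RNA gene overlaps Obp56e in Release 6, and the sources used here do not say whether strand was used in counting, so reads of the 2 cannot be told apart.

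The called genes of the Obp56 cluster do not form an unbroken run. In Release 6 the first genes run Obp56a, Obp56b, Obp56c, Obp56d, with Obp56e and Obp56f after them. Obp56b, next to Obp56a, had no read in the compared libraries and 2 reads in 1 library outside the comparison. Obp56c and the seminal fluid gene Obp56f each had a single positive-side read and none elsewhere in the fit. Obp56h, whose product is known to affect male mating behaviour, had no compared read. Its neighbour Toll-7 had a log2 fold change of 0.21 in the authors' deposited table.

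Obp99a and Obp19c had the highest deposited averages of the members, and neither was called. Obp99a averaged 482 CPM over the 12 libraries in the authors' deposited table, with a log2 fold change of -0.21, an implied SE of 0.45 and an adjusted p of 1. Obp19c averaged 173 CPM there, with a log2 fold change of 0.32, an implied SE of 0.21 and an adjusted p of 0.797. For both, the fold change was under 2 implied SEs. Limits were set as for Obp56d, with the same assumptions. The level in the embryos is only bounded, since the average includes the 6 libraries outside the comparison. For Obp99a it lay between 0.205 and 863 CPM on the positive side and between 0.237 and 999 CPM on the negative side. For Obp19c the bounds were 1.18 and 363 CPM on the positive side and 0.948 and 291 CPM on the negative side. Their neighbours in the same clusters had far lower averages. Obp99c averaged 2.17 CPM with a log2 fold change of -0.74, an implied SE of 0.73 and an adjusted p = 0.995 in the authors' deposited table, and it overlaps Gycalpha99B in Release 6. Obp99b, an OBP of the adult fat body, averaged 0.577 CPM with a log2 fold change of 0.41, and Obp99d had no compared read. In the Obp19 cluster, Obp19d averaged 0.426 CPM with a log2 fold change of -0.19 in the authors' deposited table, and Obp19a had 1 read.

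Obp19b held 5, 4 and 12 reads in the positive-side libraries, against 2, 3 and 5 reads in the negative-side libraries. The sides overlap, and the negative side stood at 0.586 of the positive side, with an interval of 0.246 to 1.3. Its adjusted p was 0.952 in the authors' deposited table.

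The next 4 members are known from the adult antenna, and each had under 10 compared reads. Obp83b, an OBP of pheromone-sensing and other antennal hairs, had 1, 3 and 1 reads on the positive side, against 1, 0 and 0 on the negative side. Obp84a had 1, 0 and 0 reads on the positive side, against 1, 2 and 2 on the negative side. Obp69a, which modulates the response to a male pheromone, had 2, 1 and 0 reads on the positive side, against none on the negative side. Obp28a, among the most abundant antennal OBPs of the adult, had 1 negative-side read. None of these 4 was called, and the smallest adjusted p among them was 0.563 in the authors' deposited table.

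Of the other members with reads on both sides, Obp18a had 0, 9 and 5 reads on the positive side, against 3, 2 and 5 on the negative side. The 2 sides overlap. Obp83cd had 1, 0 and 1 reads on the positive side, against 1, 1 and 1 on the negative side, and it overlaps Obp83ef in Release 6, which had 0, 0 and 2 against 0, 0 and 2. Obp58d had no positive-side read, against 0, 1 and 1 negative-side reads. Single reads were also held by Obp49a, an OBP through which bitter compounds suppress sweet taste, and by the seminal fluid gene Obp51a on the positive side, and by Obp50b and Obp50c on the negative side. Obp50b and Obp50c overlap in Release 6 and have the same values, so they may share that read.

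Obp44a, an OBP made by glia, averaged 0.922 CPM with a log2 fold change of -1.02, an implied SE of 0.68 and an adjusted p = 0.814 in the authors' deposited table. It overlaps Pabp2, which averaged 283 CPM there, so its reads are uncertain. Of 7 glial markers, 0 were called on either side, and they include repo, a transcription factor gene of glia, which averaged 2.44 CPM in the authors' deposited table.

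Related genes of chemosensation were set beside the members. Median averages in the authors' deposited table were 0.0852 CPM for odorant receptors, 0.0982 CPM for ionotropic receptors and 0.122 CPM for gustatory receptors. Of 42 odorant receptors, 20 had no compared read and 0 were called, and the co-receptor gene Orco had no compared read. The 37 with known reads held 59 in all on the positive side, against 27 on the negative side. These are raw reads, not scaled to library size, and Or69a alone held 32 of the 59 and 13 of the 27. Of 48 ionotropic receptors, 0 were called on the positive side, against 1 on the negative side, Ir40a, a humidity receptor, with a log2 fold change of -1.42 and an adjusted p = 0.0444 in the authors' deposited table. Of 46 gustatory receptors, 3 were called on the positive side, against 0 on the negative side. The background over all genes was 2.3% for the positive and 2.19% for the negative side. Gr32a, a receptor for bitter compounds and a male pheromone, had 6, 13 and 6 reads on the positive side, against 1, 0 and 0 on the negative side. The authors' deposited table gives Gr32a a log2 fold change of 3.92 and an adjusted p of 0.00105. Gr64b and Gr64c, sugar receptors of 1 cluster, have the same rounded values in the authors' deposited table. These are a log2 fold change of 1.42 and an adjusted p of 0.0487 by the likelihood ratio test. Their calls may therefore rest on shared reads.

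Other carrier and membrane proteins gave single calls. lush had 0, 1 and 0 reads on the positive side, against none on the negative side. Of 4 chemosensory proteins, a second family of small soluble carriers, PebIII was called on the negative side with a log2 fold change of -1.78 and an adjusted p = 1.62e-06 in the authors' deposited table. Its relative a10 had 1, 0 and 1 reads on the positive side, against 3, 2 and 3 on the negative side, and was not called, with an adjusted p of 0.297. Snmp2, a CD36-type membrane protein of sensilla support cells, had 0, 1 and 1 reads on the positive side, against 5, 9 and 6 on the negative side. Its log2 fold change was -3.36 and its adjusted p 0.000368 in the authors' deposited table. Like Obp57a, Obp57b and Obp57c it had no read outside the comparison. Of 15 CheA and CheB genes, 11 had no compared read and 0 were called. Of 7 enzymes that break down odorants or their like, the glucuronosyltransferase genes Ugt35a and Ugt35b were called. Ugt35a had a log2 fold change of 0.82 (adjusted p = 0.01) and Ugt35b one of -2.10 (adjusted p = 0.00945) by the authors' deposited table. Of 6 regulators of olfactory organ formation, 0 were called.

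Markers of other tissues were placed on the same sides. Both spermatheca markers lay on the negative side, with the called members: Send1 had a log2 fold change of -8.43 and an adjusted p = 7.99e-24 in the authors' deposited table. Send2 had 0, 0 and 1 reads on the positive side, against 3, 3 and 4 on the negative side, and an adjusted p of 0.0563. Their part in the OBP calls was not tested. Of 15 genes listed for the accessory gland by the symbol prefix Acp, 6 had no compared read and 0 were called. The 14 with known reads held 7 on the positive side, against 8 on the negative side. That prefix also took in Acp1 and Acp65Aa, adult cuticle protein genes, and neither had a compared read. Of 6 fat body genes, 2 were called on the positive side, Lsp1beta and Lsp2. Lsp1beta had a log2 fold change of 2.71 (adjusted p = 0.000686) and Lsp2 one of 3.73 (adjusted p = 2.76e-19) by the authors' deposited table. Of 88 cuticle genes, Osi2 was called on the positive side, against Cpr47Ef, Cpr49Ab and Cpr49Ae on the negative side. Of the muscle, neuron and eggshell and yolk genes 0 were called on either side.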

How the data were processed

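RNA from 200 embryos per sample was measured in 3 InR-DN and 3 GFP control samples. Per the labels' protocols, libraries were made with a TruSeq stranded total RNA kit, while the labels' descriptions say polyA selected. FastQC, Bowtie and TopHat are named in the submitters' processing notes; the sources used here give neither their versions nor the read counter, strand use and genome build. Per the file headers, the authors ran glmLRT, the likelihood ratio test of edgeR, and the table lists its output, with 1 degree of freedom. Its deposited log2 fold changes and average log2 CPM were used as they stand. The deposited likelihood ratio is a score, and the deposited p-value and Benjamini-Hochberg adjusted p-value were recomputed from it, with largest differences of 6.38e-15 and 3.55e-15. The design assumed values per sample if present; the table holds none, and 0 columns belong to other samples.

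Computed here, with Python 3.11.15, numpy 2.4.6, pandas 2.3.3, scipy 1.17.1 and numba 0.67.0, were the following. An implied SE was obtained by dividing the absolute log2 fold change by the square root of that score. Library sizes were solved from genes with 1 read, with a prior count of 2 and a dispersion of 0.0533; 74 of 78 levels predicted for 2 reads were found within 1e-09. Reads of scarce genes are the whole reads that give the deposited fold change (within 1e-08, or 5e-06 with 1 side at 0) and likelihood ratio at a single dispersion; the deposited average only limited the total searched. The exact average was then compared, and for 18 recovered members exactly 1 set of reads in the other libraries gave it. On a simulated table built by separate code, with up to 72 compared reads, the step returned the true reads for 64 of 68 scarce genes, wrong reads for 0 and no single set for 4, all with 37 reads or more. Rounding inside the authors' software was not simulated there; in an earlier trial with that software, not part of the results here, more genes were left with no single set and none had wrong reads. In the deposited data the step found no set for some scarce genes of the other lists, such as Ir7d, with 2.9 to 3.1 reads in the fit. This happened for no member searched. Intervals for a ratio of reads are exact Clopper-Pearson at 95%.

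Members and lists were chosen with earlier results of these data known. Every member is accounted for; full values are given for members with an adjusted p under 0.05 or an average of 1 CPM or more, and fold changes and adjusted p-values for genes past 0.05 in the receptor, carrier, membrane protein and enzyme lists. Release 6 was used for names, chromosome arms and neighbours only. Alternatives tried were other thresholds, a minimum fold, an average of 1 CPM, Bonferroni adjustment, more than 3 reads possible on the lower side, and recentring.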

Additional observations from a re-analysis of the deposited data

Results flagged for a closer look

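The deposited average covers 6 libraries outside the comparison, and 12 members with no read in the compared libraries had more than 3 reads there, the limit that a count of 0 allows. Obp59a, the humidity-sensing OBP, stood far above the others with at least 334.5 reads, or 2.09 CPM over those libraries. Fewest possible reads were 26.8 for Obp58b, 26 for Obp85a, 22.1 for Obp58c, 20 for Obp56h and 13.3 for Obp47b. Exact reads were 11 for Obp57e in 5 libraries, 11 for Obp99d in 4, 8 for Obp83g in 2, 7 for Obp73a in 4, 6 for Obp46a in 3 and 6 for Obp93a in 3. The sources used here do not say what these libraries are. A gene with no compared read has all its reads there, so such reads are not particular to OBPs. Among related genes with no compared read, Ir64a had at least 7411.6 reads there, Gr2a at least 298.8 and Orco 3. The share with more than 3 such reads was not counted over all genes.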

How the results depend on the processing

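The count of called members, 5 at an adjusted p under 0.05, was 4 at 0.01 and 5 with a minimum fold of 2. It was 2 (Obp56d and Obp56a) when genes averaging under 1 CPM were left out and 3 (with Obp57a) under Bonferroni adjustment. It was 1 (Obp56d) when calls with at most 3 possible reads on the lower side were dropped. The background over all genes was then 3.86%. The median log2 fold change was -0.02 after subtracting the median of genes of 16 CPM or more, a shift of 0.02, and -0.21 over members of 1 CPM or more, against 0.00. The same shift applies to each of the 9 named members and is smaller than each of their fold changes, so it could not change a side. No paired analysis was possible because the table holds no value per sample; for the same reason DESeq2, its size factors and leaving out each replicate were not run. Depth limits the precision: 36 members averaged under 1 CPM, the median implied SE was 1.17 for members with a read against 0.32 for all such genes, and 15 of the 20 members with known reads had under 10 compared reads.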
